A study of Mus musculus with 18 samples.

Results

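The far telomeric end of mouse chromosome 11, band 11qE2 with the cytokine signalling inhibitor gene Socs3, was examined as a contact partner of Il4, a gene on the same chromosome. The region's members were taken by position, as all array probes on the telomeric end of chromosome 11, from the first at 115004665 to the last at 121793708. It held 933 of the 384942 probes of each array, 61.5 to 68.3 Mb from the 500-kb bin of the bait. Positions are in mm8. It was inferred as the build because, of the 4 mouse builds set against the probe positions, it alone had no probe past a chromosome end.

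Contacts of Il4 were read by 4C, in which chromatin is crosslinked, cut with HindIII and ligated, and the DNA joined to a chosen gene, the bait, is amplified outward from that gene. The amplified DNA was labelled with Cy5 and hybridised against digested genomic DNA of the same cells labelled with Cy3, so that a high log2 ratio marks DNA that was often near Il4 in the nucleus. A total of 8 arrays with the Il4 bait was used, 2 each from Stat6 knockout T helper 2 (Th2) cells, Th2 cells, Th1 cells and naive CD4 T cells of the mouse. The labels give the knockout cells as Stat6 KO Th2 cells, and the strain, age, allele and number of mice are not given in the sources used here. The same probes were also read on 10 arrays with the Ifng bait, which lies on chromosome 10, 2 each from Stat4 KO Th1 cells, Th2 cells, Th1 cells, naive CD4 T cells and the 3T3-L1 cell line.

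Il4 encodes interleukin 4, the signature cytokine of Th2 cells, and STAT6 is the transcription factor activated by its receptor. In 4C, the contact frequency along the bait's own chromosome generally falls with distance, and active, gene-rich stretches tend to contact one another over long distances. SOCS3 is induced by STAT proteins and in turn inhibits cytokine receptor signalling. Band 11qE2 is gene-rich. It holds 210 protein-coding genes in RefSeq (GRCm38.p6), and was 35th in genes per Mb among 325 autosomal bands of at least 2 Mb. The region covers 58.5% of the band, and because the gene table has another build than the probes, a gene named here lies in the band and not in a known bin.

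Beside Socs3, the band holds Birc5, which encodes the mitotic survival protein survivin, Tk1 for thymidine kinase, Timp2 for an inhibitor of matrix metalloproteinases, and Grb2, an adaptor of receptor tyrosine kinases. Genes of lymphocytes there include Cd7, a T cell surface protein, and Unc13d, which is needed for release of cytotoxic granules. Sphk1, whose product makes sphingosine 1-phosphate, is also in the band. The Polycomb gene Cbx2, the fatty acid synthase gene Fasn and the cytoplasmic actin gene Actg1 lie there too. In gene order, Socs3 stands between Tha1 and Pgs1, with Birc5 and Tmem235 just beyond Tha1. The arrays read contacts and not RNA, and so they give no expression value for any of these genes.

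The Socs3 promoter is shown because Socs3, the gene used here to name the region, is a known target of STAT proteins. The RefSeq stretch in GRCm38.p6, chr11:117969317-117969616 on the minus strand, spans the start site. Capitals mark a match to TTCNNNGAA, the palindrome known to be bound by STAT proteins, which reads the same on both strands; its first base is at -154 from the start site.
Socs3: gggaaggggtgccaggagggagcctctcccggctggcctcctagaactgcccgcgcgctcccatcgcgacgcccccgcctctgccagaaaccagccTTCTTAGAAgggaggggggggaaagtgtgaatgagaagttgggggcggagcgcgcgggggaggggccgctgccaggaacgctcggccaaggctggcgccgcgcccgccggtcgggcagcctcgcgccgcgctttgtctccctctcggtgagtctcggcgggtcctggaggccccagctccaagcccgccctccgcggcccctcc
The same motif occurred in 8.30% of 32851 RefSeq promoters of this length and in 5.80% of 293 promoters of the band. The wider spacing, with 4 bases between TTC and GAA, also covers both strands. It was not found in the Socs3 window and occurred in 6.95% of all promoters. No genome of the probes' build was used here, so the sequence under the bins is not shown.

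Some properties of the arrays touch all values below. On each of the 8 Il4 arrays the highest 500-kb bin was the bait's own bin or the bin just after it. Over all probes, Il4 Th2 replicate 2 correlated more with an Ifng array, Th1 replicate 2 (r = 0.347), than with its own replicate (r = 0.243). Il4 naive replicate 2 likewise correlated more with Il4 Th1 replicate 2 (r = 0.382) than with naive replicate 1 (r = 0.269). In all, 6 of the 8 Il4 arrays correlated most with an array of another group, both knockout arrays among them, so replicates did not stand out by their likeness over single probes. The design text calls the arrays individual biological replicates, with 1 further array from a pool, but does not say whether they came from separate mice. In the other Il4 pairs 99.8% to 99.99% of the sorted values of both arrays were equal within 0.01, and in the Th2 pair 10.8% were. The knockout, Th1 and naive pairs thus each shared nearly the same distribution of values, and the Th2 pair did not. The bearing of this on the spread between replicates, and so on each SE and p below, was not tested. The Th2 and naive groups, compared below, differ in this property. Precision is also limited by the 2 arrays a group.

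Il4 signal in the telomeric region was highest in naive cells and, on the scale used here, lowest in Th2 cells. The order of Th2 and knockout cells depended on the scale: the knockout minus Th2 difference of 0.12 was -0.60 with each array divided by its own spread off chromosome 11 and -0.019 with quantile normalization. The mean log2 ratio over the region, relative to the median of probes off chromosome 11, was 0.46 and 0.38 on the Stat6 knockout Th2 arrays, 0.29 and 0.30 on the Th2 arrays, 0.43 and 0.73 on the Th1 arrays, and 0.78 and 1.07 on the naive arrays. Both naive arrays lay above all 6 other arrays, both Th2 arrays lay below all others, and the Th1 and knockout arrays overlapped. Group means (± SD, n = 2 each) were 0.42 ± 0.05 for Stat6 knockout Th2, 0.30 ± 0.0087 for Th2, 0.58 ± 0.22 for Th1 and 0.93 ± 0.21 for naive cells. Of all 7-Mb windows, 4.83% had both knockout arrays below both naive arrays, 8.04% both Th2 arrays and 1.34% both Th1 arrays, and on the rest of chromosome 11 it was 93.8%, 93.8% and 25%. Both Th2 arrays were below both Th1 arrays in 64.9% of all windows and 93.8% of the rest of chromosome 11, and below both knockout arrays in 55.8% and 100%.

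The region was then tested as 1 window among 373 windows of 7 Mb across the genome, with limma and Benjamini-Hochberg adjustment over all windows at 0.05. Between Th2 and naive cells the window fell by 0.63 on the log2 scale (SE 0.11, limma adjusted p = 0.0338). Of the 373 windows 2.14% were called in that comparison, all lower in Th2, and of the 16 other windows of chromosome 11 it was 43.8%, so the call is shared with much of the chromosome. The remaining 5 comparisons did not pass in limma, with 0.536% of windows called for the knockout against naive cells and 0% in the other 4. Stat6 knockout Th2 cells differed from naive cells by -0.51 (SE 0.11, adjusted p = 0.0780), Th1 from naive cells by -0.35 (adjusted p = 0.413), Th2 from Th1 cells by -0.28 (adjusted p = 0.621), the knockout from Th2 cells by 0.12 (adjusted p = 0.554) and the knockout from Th1 cells by -0.16 (adjusted p = 0.849). Leaving out Th1 replicate 2 moved Th2 against Th1 to -0.13 and the knockout against Th1 to -0.0055, and leaving out Th1 replicate 1 moved Th1 against naive cells to -0.20. The Th2 call was lost, among other settings, with the median of the probes in place of the mean (-0.365, adjusted p = 0.305) and without naive replicate 2 (-0.48, adjusted p = 0.218), Th2 replicate 1 (-0.62, adjusted p = 0.203) or Th2 replicate 2 (-0.64, adjusted p = 0.169).

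**Figure D1:**
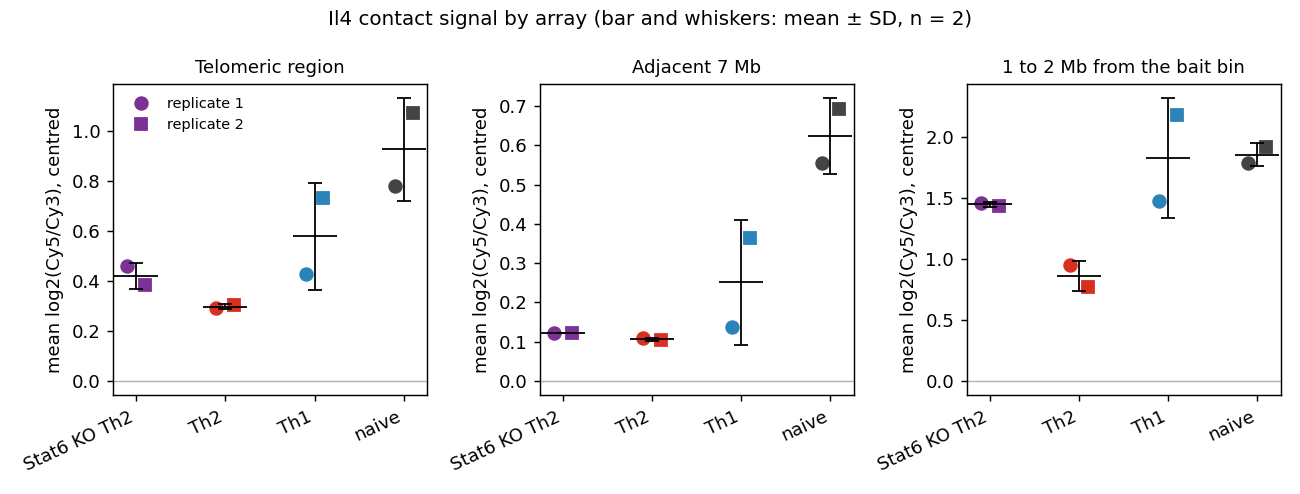
Mean log2 ratio (Cy5 over Cy3, centred on probes off chromosome 11) per Il4 array in the telomeric region, in the 7 Mb just before it and at 1 to 2 Mb from the bait bin, with replicates as points and the mean ± SD of 2 arrays as bars; the y axes differ in range. In the telomeric region naive arrays stood at 0.78 and 1.07 and Th2 arrays at 0.29 and 0.30.

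Th2 arrays were also the lowest at 1 to 2 Mb from the bait bin, but not both in the bait bin itself. There, Th2 replicate 1 had 2.17, the lowest of all, and Th2 replicate 2 had 2.92, above the naive arrays (2.74 and 2.59). At 1 to 2 Mb from the bait bin the knockout arrays had 1.46 and 1.43, the Th2 arrays 0.95 and 0.77, the Th1 arrays 1.48 and 2.17 and the naive arrays 1.78 and 1.92. The part of an array's overall signal strength in the difference was not tested. With each array centred on the median probe of the rest of chromosome 11 and chromosome 11 fitted alone, Th2 and naive cells differed by -0.45 (limma adjusted p = 0.00161) and knockout and naive cells by -0.35 (adjusted p = 0.0154). The region was still taken as the mean of its probes, so these values are not its change beyond that of the rest of the chromosome. The median change of 500-kb bins between Th2 and naive cells was -0.63 in the region and -0.455 on the rest of chromosome 11. For the knockout against naive cells these medians were -0.56 and -0.26. The rest of the chromosome includes windows that are low in every group, such as that from 10000001 (Th2 0.05 and 0.02, naive 0.09 and 0.007). Of windows with naive signal near the region's, some fell more in Th2 cells and some less. The window from 80000001 had 0.13 and 0.19 on the Th2 arrays and 0.86 and 1.07 on the naive arrays. That from 59000001 had 0.22 and 0.25 against 0.75 and 0.90. With each array divided by its own spread off chromosome 11, Th2 and naive cells differed by -6.21 in units of that spread (limma adjusted p = 0.153).

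Along the region, the signal was spread over all bins and not held by a single peak. In 14 bins of 500 kb with 43 to 83 probes each, all bins were above the median of the other chromosomes on every array except the last bin of both Th2 arrays. The bins ranged from 0.12 to 0.67 and from 0.23 to 0.58 on the knockout arrays, from -0.08 to 0.61 and from -0.06 to 0.49 on the Th2 arrays, from 0.23 to 0.78 and from 0.39 to 1.09 on the Th1 arrays, and from 0.51 to 1.14 and from 0.87 to 1.30 on the naive arrays. Averaged over the 8 arrays, the highest bin was the one from 116500001 to 117000000 (0.67) and the lowest the last one, from 121500001 to the end (0.36).

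**Figure D2:**
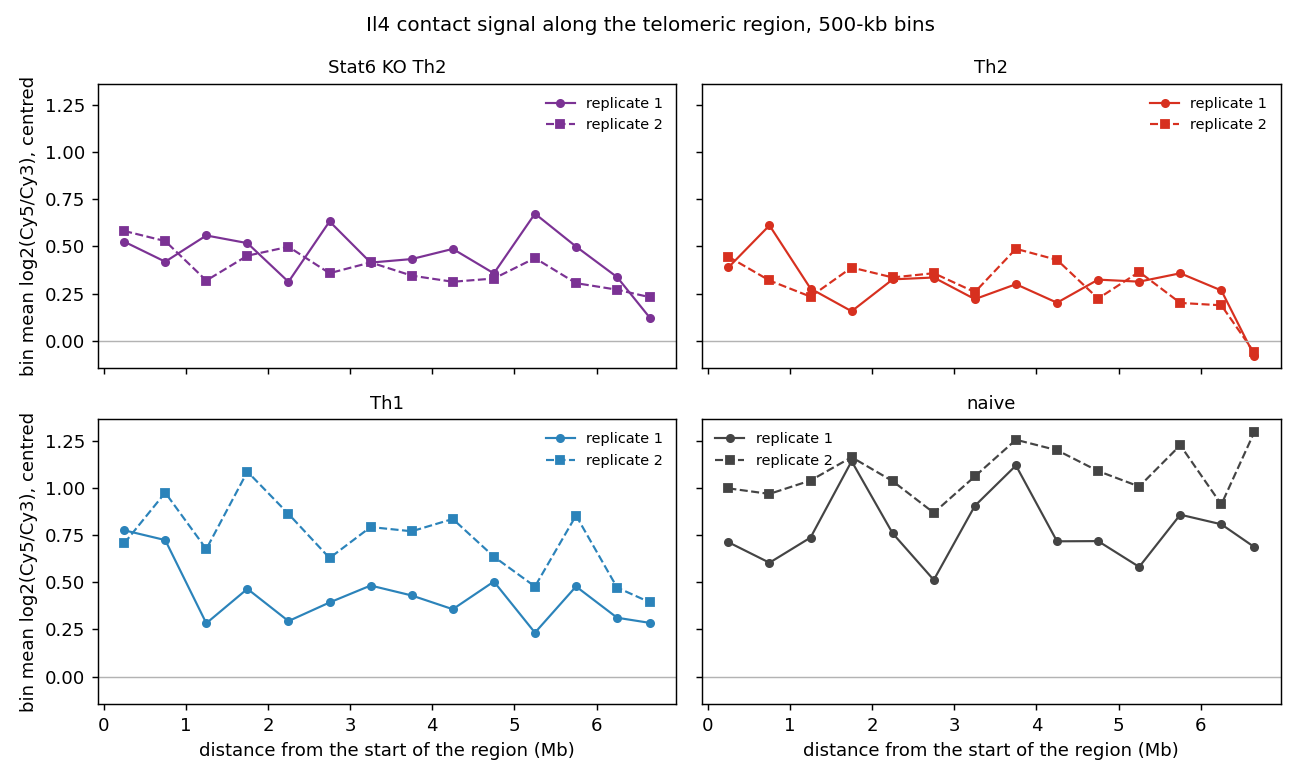
Mean log2 ratio of each 500-kb bin along the telomeric region (x axis, Mb from its start) in 4 panels, with a line for each of the 2 arrays per group. Naive bins lie between 0.51 and 1.30, and the last bin of both Th2 arrays is the only one below 0.

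Of the 14 bins, 9 were lower in Th2 than in naive cells in limma after adjustment over all 5021 bins of the genome, and 0 were higher. These are 64.3% of the region's bins, beside 2.23% of all bins and 46.6% of the 219 other bins of chromosome 11. The median change over the 14 bins was -0.63, against -0.46 over the rest of chromosome 11 and 0.01 over all bins. The rest of chromosome 11 includes stretches that are low in every group. In 13 of the 14 bins both Th2 arrays were below both naive arrays, which held for 84% of the other bins of chromosome 11 and 12.3% of all bins. Unadjusted p was under 0.05 in 14 of 14 bins, in 68% of the rest of chromosome 11 and in 5.36% of all bins. For the counts under changed settings, here and below, the share over all bins was not taken. They show only how the region's own count moves. Without naive replicate 2 or Th2 replicate 2 the count was 5 in each case, and with each array divided by its own spread or with the median per bin it was 4.

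Within the region, the largest difference between Th2 and naive cells was in the last bin, at the end of the chromosome. Larger differences occurred outside it. The bin just before the region, from 114500001, had 0.22 and 0.12 on the Th2 arrays and 1.24 and 1.45 on the naive arrays. The bin from 121500001, with 43 probes, had -0.08 and -0.06 on the Th2 arrays and 0.69 and 1.30 on the naive arrays. Th2 signal there did not stand above the median of other chromosomes, while the naive arrays lay far apart from each other and both well above 0. The change was -1.06 (SE 0.14, limma adjusted p = 0.00177). On the Th1 arrays this bin had 0.28 and 0.39, and on the knockout arrays 0.12 and 0.23, so all 6 arrays of Th1, Th2 and knockout cells were below both naive arrays. It was the lowest bin of the region on 5 of those 6 arrays, and the highest on naive replicate 2.

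The bin next to it, from 121000001 to 121500000, had 0.27 and 0.19 on the Th2 arrays and 0.81 and 0.91 on the naive arrays. Its change was -0.63 (SE 0.07, limma adjusted p = 0.000506), and replicates of both groups lay close together. The bin from 118000001 to 118500000 had 0.22 and 0.26 on the Th2 arrays against 0.91 and 1.06 on the naive arrays, a change of -0.74 (adjusted p = 0.00103). The bin from 118500001 to 119000000 had 0.30 and 0.49 against 1.12 and 1.26, a change of -0.79 (adjusted p = 0.00144). In none of these bins did the arrays of the 2 groups overlap.

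The bin from 116500001 to 117000000 had 0.16 and 0.39 on the Th2 arrays and 1.14 and 1.16 on the naive arrays, a change of -0.88 (SE 0.15, limma adjusted p = 0.00976). The other called bins began at 119500001 (-0.63), 120500001 (-0.76), 116000001 (-0.63) and at the region's start (-0.44), with adjusted p from 0.00630 to 0.0247. Not passing were the bins from 115500001 (-0.32), 117000001 (-0.57), 117500001 (-0.34), 119000001 (-0.64) and 120000001 (-0.46). The bins from 117500001 and from 115500001 thus had the smallest changes, and only at 115500001 did the arrays of the groups overlap (0.61 and 0.32 in Th2 against 0.60 and 0.97 in naive cells).

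Stat6 knockout Th2 cells were also below naive cells, in 6 of the 14 bins, and 0 bins were higher (42.9%, beside 1.39% of all bins and 23.7% of the other bins of chromosome 11; limma). The naive arrays of this comparison are those of the Th2 comparison, so the changes of both are not independent. The largest lay in the last bin (0.12 and 0.23 against 0.69 and 1.30; -0.82, SE 0.14, adjusted p = 0.0187) and in the bin from 118500001 (0.43 and 0.35 against 1.12 and 1.26; -0.80, SE 0.10, adjusted p = 0.00363). The bins from 118000001, 119500001, 120500001 and 121000001 changed by -0.57, -0.56, -0.64 and -0.56, with adjusted p from 0.00267 to 0.0469. Both knockout arrays were below both naive arrays in 12 of 14 bins, beside 6.55% of all bins and 61.2% of the rest of chromosome 11. Unadjusted p was under 0.05 in 12 bins (12.5% of all bins and 53.9% of the rest of chromosome 11). Without knockout replicate 2 no bin passed, without knockout replicate 1 or naive replicate 2 the count was 2 in each case, and with the compared groups alone in the fit 10 passed. The knockout arrays came from an array serial series of their own, so the series and the genotype cannot be told apart.

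**Figure D3:**
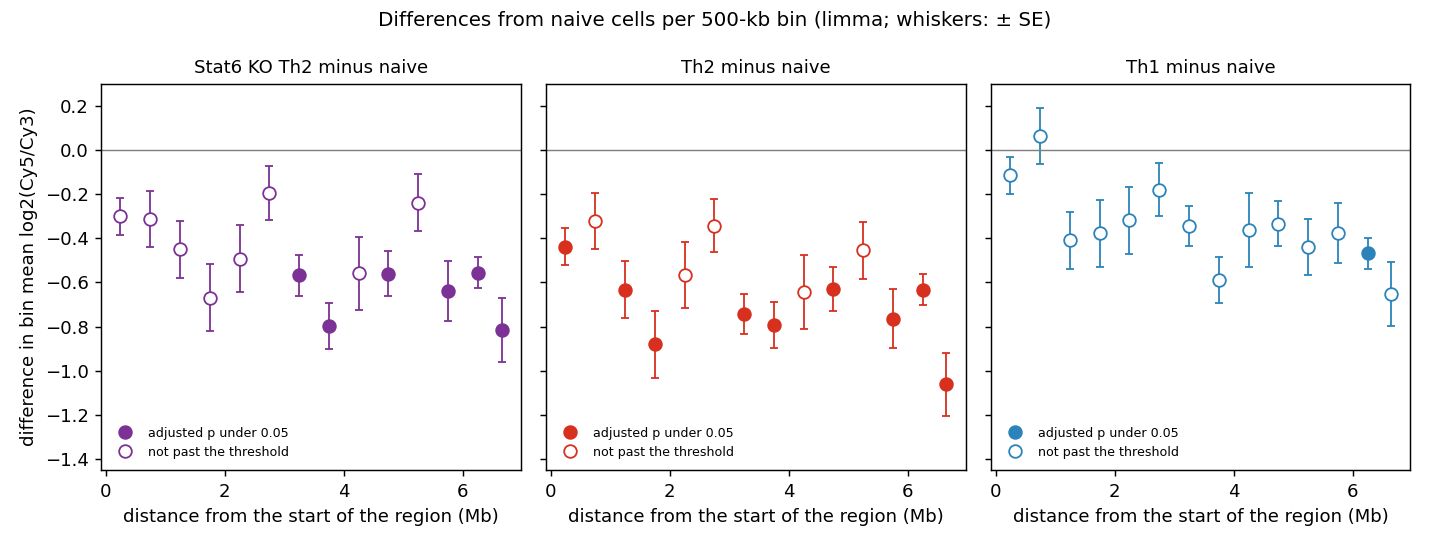
Difference in bin mean log2 ratio from naive cells (y axis) for each of the 14 bins by distance from the start of the region, in Stat6 knockout Th2, Th2 and Th1 cells; whiskers are ± SE from limma and filled points passed an adjusted p of 0.05. Filled points number 6 in the knockout, 9 in Th2 and 1 in Th1 cells, all below 0.

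Between Th1 and naive cells, 1 of 14 bins was lower in Th1 cells in limma and 0 were higher (7.14%, beside 0.119% of all bins and 2.28% of the rest of chromosome 11). This bin, from 121000001, had 0.31 and 0.47 on the Th1 arrays against 0.81 and 0.91 on the naive arrays, a change of -0.47 (SE 0.07, adjusted p = 0.0337). The difference was negative in 13 of the 14 bins and reached -0.65 in the last bin, which missed the threshold. At the bin from 115500001 it was 0.06. The median change was -0.37, beside -0.13 on the rest of chromosome 11 and 0.04 over all bins. Both Th1 arrays were below both naive arrays in 9 bins, beside 3.96% of all bins and 30.6% of the rest of chromosome 11, and unadjusted p was under 0.05 in 9 bins, beside 5.1% and 32%. The Th1 arrays themselves lay far apart, with 0.47 and 1.09 in the bin from 116500001. The count was 8 without Th1 replicate 2, 2 without naive replicate 1, and 0 without Th1 replicate 1 or without naive replicate 2. Within the single serial series with both groups, which held 1 naive array, it was 0.

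Between Th2 and Th1 cells, and between knockout and either of them, no bin of the region passed in limma. Of all bins 0.219% were called for Th2 against Th1 (5.02% of the rest of chromosome 11), 0.0199% (0.457% of the rest of chromosome 11) for the knockout against Th2 and 0% for the knockout against Th1. Unadjusted p was under 0.05 in 8 of 14 bins for Th2 against Th1 (57.1%, beside 6.31% of all bins and 55.7% of the rest of chromosome 11). All 14 bins were lower in Th2, and the share of lower bins elsewhere was not taken. The median change was -0.29, beside -0.27 on the rest of chromosome 11 and -0.03 over all bins. The smallest p was at the bin from 118000001, with 0.22 and 0.26 on the Th2 arrays against 0.48 and 0.79 on the Th1 arrays (-0.40, SE 0.09, adjusted p = 0.127). The count of called bins was 4 without Th1 replicate 1. For the knockout against Th2 cells unadjusted p was under 0.05 in 0 bins (7.61% of all bins and 24.2% of the rest of chromosome 11). The change was positive in 13 of 14 bins, with a median of 0.13, the same as over the rest of chromosome 11 (0.13). The smallest p was again at 118000001 (0.41 and 0.42 in knockout against 0.22 and 0.26 in Th2 cells, 0.18, SE 0.09, adjusted p = 0.689). For the knockout against Th1 cells unadjusted p was under 0.05 in 4 bins (6.19% of all bins and 26.9% of the rest of chromosome 11), and the smallest p was at 115500001 (0.42 and 0.53 against 0.72 and 0.98, -0.38, SE 0.13, adjusted p = 0.705). Without Th1 replicate 1, 2 bins passed in that comparison.

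The telomeric region stood above the 7 Mb just before it on all 8 arrays. That window had 0.12 and 0.12 on the knockout arrays, 0.11 and 0.10 on the Th2 arrays, 0.14 and 0.36 on the Th1 arrays and 0.55 and 0.69 on the naive arrays. The telomeric region was higher by 0.33 and 0.26 in knockout, 0.18 and 0.20 in Th2, 0.29 and 0.37 in Th1 and 0.23 and 0.38 in naive cells. This step is one between window means. The bin just before the region began at 114500001. It had 0.29 and 0.45 in knockout, 0.22 and 0.12 in Th2, 0.45 and 0.99 in Th1 and 1.24 and 1.45 in naive cells. In the region's first bin the values were 0.53 and 0.58, 0.39 and 0.45, 0.78 and 0.71, and 0.71 and 1.00 in the same order. On the naive arrays the signal thus did not rise at the region's start. Whether the step between window means differed between groups was tested in limma over 352 pairs of adjacent windows. The region passed in none of the 6 comparisons (at most 0.568% of all pairs were called in any of them). The step was 0.11 smaller in Th2 than in naive cells (a difference of -0.11, SE 0.05, adjusted p = 0.877; -0.035 without naive replicate 2 and -0.19 without naive replicate 1), 0.02 larger in Th1 than in naive cells (adjusted p = 0.995), and differed by -0.14 between Th2 and Th1 cells (adjusted p = 0.944). For the knockout, the step differed by 0.11 from Th2 cells (limma adjusted p = 0.999) and by -0.0049 from naive cells (adjusted p = 0.999). Against Th1 cells it differed by -0.029 (adjusted p = 0.978). No change of the telomeric region beyond that of its neighbour was thus detectable with these arrays.

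**Figure D4:**
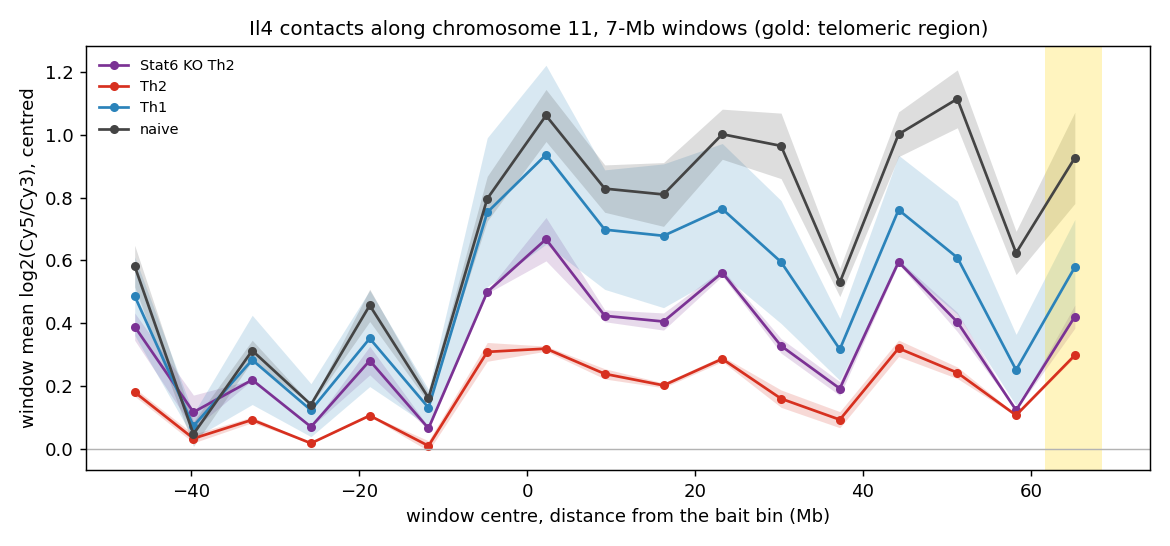
Mean log2 ratio of 7-Mb windows along chromosome 11 for the Il4 bait against the distance of the window's centre from the bait bin, with the mean of 2 arrays as a line, the range of the 2 arrays as a band and the telomeric region shaded in gold. In every group the signal is higher in the gold window than in the window before it.

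Among the 17 windows of chromosome 11, the telomeric region ranked 5th and 6th on the knockout arrays, 5th and 2nd on the Th2 arrays, 8th and 9th on the Th1 arrays and 6th and 5th on the naive arrays, although it is the farthest from the bait. Its level was above that of other chromosome ends, as was that of most of chromosome 11, the bait's own chromosome. Stretches of the same length at the ends of the other 18 autosomes had medians between 0.02 and 0.10 on the 8 arrays, and the highest of them on any array was 0.29, on knockout replicate 2, where the telomeric region of chromosome 11 had 0.38. On each array the highest other end was below the telomeric region, and also below 10 to 16 of the 17 windows of chromosome 11.

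By the share of strong probes both naive arrays were again the highest, but the lowest array was Th1 replicate 1 and not a Th2 array. Of the region's probes, 18.1% and 19.1% were in the highest 5% of their array in knockout, 16.6% and 13.6% in Th2, 13.1% and 24.8% in Th1 and 35.5% and 50.9% in naive cells. On the rest of chromosome 11 the shares were 14.9% and 16.1% in knockout, 11.2% and 8.23% in Th2, 12.2% and 22.9% in Th1 and 27.3% and 33.9% in naive cells, lower on each array. On other chromosomes they lay between 3.47% and 4.84%. Single probes varied far more than bins. In the highest 5% of both arrays of a group were 42 of the 933 probes in knockout, 28 in Th2, 40 in Th1 and 223 in naive cells, while off chromosome 11 that share was between 0.302% and 0.724% in the 4 groups. A single probe was in the highest 5% of all 8 arrays (0.107% of the region's probes, against 0.0109% off chromosome 11). On none of the arrays were 150 probes so (16.1%, against 73.6% off chromosome 11). For these counts over several arrays, the share on the rest of chromosome 11 was not taken, so they are not shown to be particular to the region.

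**Figure D5:**
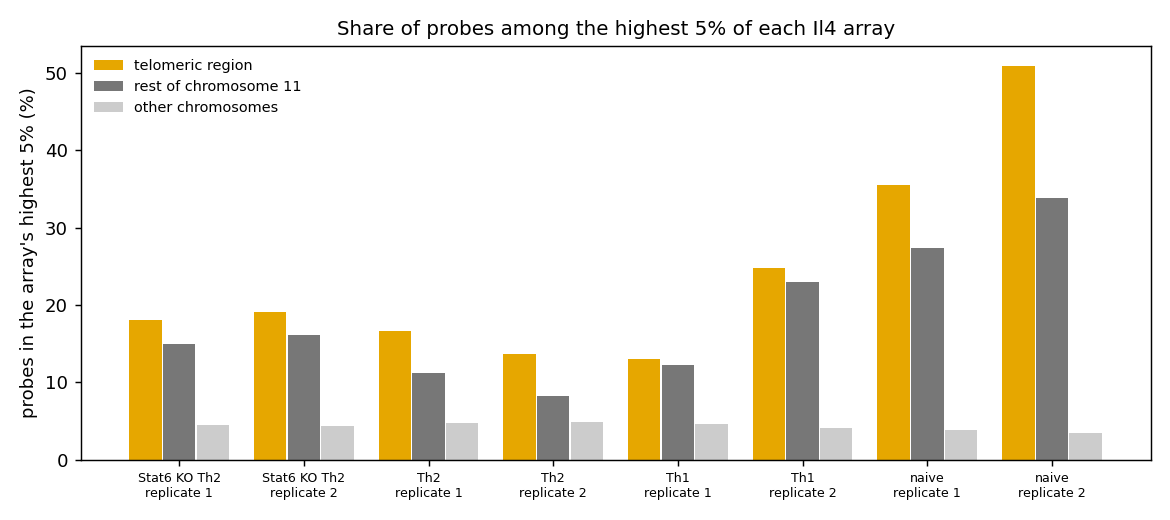
Share of probes (in %) among the highest 5% of each Il4 array, for the telomeric region, the rest of chromosome 11 without the bait's surroundings, and the other chromosomes. The telomeric bar is above the others on all 8 arrays and reaches 35.5% and 50.9% on the naive arrays.

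On the Ifng arrays, where chromosome 11 is not the bait's chromosome, the same probes had a small positive signal in T cells. The mean log2 ratio, centred on probes off chromosome 10, was 0.15 ± 0.0084 for Stat4 knockout Th1, 0.17 ± 0.05 for Th2, 0.10 ± 0.02 for Th1 and 0.19 ± 0.02 for naive cells (SD over 2 arrays). Although small, it was among the highest of the 333 autosomal windows off chromosome 10. It ranked 5th and 7th on the knockout arrays, 3rd and 11th on the Th2 arrays, 4th and 1st on the Th1 arrays and 5th and 11th on the naive arrays. The array with rank 1, Th1 replicate 2, correlated most over all probes with an Il4 array, Th2 replicate 2 (r = 0.347). Over the region's probes its r with Th1 replicate 1 was -0.006. In 3T3-L1, a preadipocyte line, the mean was 0.06 ± 0.04 (SD, n = 2) and the ranks were 232nd and 52nd. The share of the region's probes in the highest 5% was 3.11% to 7.82% on the 10 Ifng arrays, close to the 5% of a whole array. These values are a description, and no test was made between the cell types or the baits.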

How the data were processed

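Il4 arrays (8, in 4 groups of 2 by their titles) were used for all tests, and 10 Ifng arrays for description. Each deposited value is a probe's log2 ratio, Cy5 to Cy3, in steps of 0.005. Per the labels' protocols, Cy5 holds HindIII and Csp6I 4C DNA and Cy3 digested genomic DNA. The base of the logarithm was taken as 2. Scanner software, background correction, filters and build are not given in the sources used here. The protocol describes adherent cells and other baits, and the design text counts 1 pooled array without naming it. Titles were followed.

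Array values were set relative to the median probe off chromosome 11, without loess or quantile steps. Means were taken in 500-kb bins (at least 20 probes) and in 7-Mb windows from 3000001 on each chromosome (at least 280 probes), of which the region is one. Probes from 52000001 to 54500000 around the bait were left out. limma 3.58.1 in R 4.3.3 fitted all 8 Il4 arrays (lmFit, contrasts, eBayes), two-sided, with Benjamini-Hochberg adjustment over all features. The fit was also run on simulated data with independent noise for each feature. Such data lack shifts shared along a chromosome, and no result here rests on them. The leading digits of the array serial number served as a possible batch. Bands came from circlize 0.4.16, genes and promoters from RefSeq (GRCm38.p6), in which 31 of 32 listed symbols were found, all of them in band 11qE2. Tables and figures used Python 3.11.15, pandas 2.3.3 and matplotlib 3.10.9.

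Named are bins called in a comparison or, with none called, the bin with the smallest p, and the bins highest and lowest over all arrays. The region and the lists were chosen with earlier results of these data known. Alternatives were other bin sizes, the median, the share of high probes, scaling, quantile normalization, centring on chromosome 11, replicate number or serial series as a block, fewer arrays or features in the fit, trend and robust settings, and each array left out.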

Additional observations from a re-analysis of the deposited data

How the results depend on the processing

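The lower region in Th2 than in naive cells (-0.63) kept its direction under all 16 alternatives and its call under 7. It was lost with the median (-0.365, limma adjusted p = 0.305), division by the spread off chromosome 11 (-6.21, 0.153), serial series C alone (-0.78, 0.218) or D alone (-0.48, 0.895), trend and robust settings (-0.63, 0.0596) and the rest of chromosome 11 left out (-0.63, 0.0841). With each array left out it ranged from -0.77 to -0.48. The knockout against naive cells passed with centring on chromosome 11 (-0.35, 0.0154), the compared groups alone (-0.51, 1.05e-05) and trend and robust settings (-0.51, 0.0425), and ranged from -0.65 to -0.36 with each array left out. The knockout against Th2 cells turned sign with division by the spread (-0.60) and with quantile normalization (-0.019). With each array left out, Th1 against naive cells ranged from -0.50 to -0.20, Th2 against Th1 from -0.43 to -0.13, and the knockout from 0.086 to 0.16 against Th2 and from -0.31 to -0.0055 against Th1.

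Called bins for Th1 against naive cells (1 of 14) numbered 3 with the median, 2 with the share of probes in the highest 5%, 4 with quantile normalization, 1 with 200-kb or 1000-kb bins, and 0 with centring on chromosome 11, the serial series as a block, series D alone, the compared groups alone, trend and robust settings or no minimum of probes. For Th2 against naive cells (9) they numbered 4 with the median or division by the spread and 2 in series D alone. For Th2 against Th1 (0) there was 1 with centring on chromosome 11, the series block or the compared groups alone. For the knockout against naive cells (6) there were 3 with the median, division by the spread or trend and robust settings, and 10 with the compared groups alone. No share over all bins was taken under these alternatives. With each array left out the counts were 0 to 8 for Th1 and 5 to 10 for Th2 against naive cells, 0 to 4 for Th2 against Th1, 0 to 7 for the knockout against naive cells and 0 to 2 against Th1.

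The step to the window before the region turned sign for Th1 against naive cells with the median (-0.13), the share of high probes (-3.40), division by the spread (-0.070) and quantile normalization (-0.0014), for the knockout against Th1 with the share (1.55) and against Th2 with division by the spread (-0.12). With each array left out it ranged from -0.052 to 0.10 for Th1 and from -0.19 to -0.035 for Th2 against naive cells, from -0.082 to 0.072 for the knockout against naive cells and from -0.068 to 0.0094 against Th1. The cause of these changes was not tested. With the replicate number as a block, 0 bins were called for Th1, 11 for Th2 and 5 for the knockout against naive cells, 0 in the other comparisons, and no call of the region as a window changed. Deviations of same-numbered arrays correlated from -0.392 to 0.336 over group pairs, so the numbers were not shown to pair the arrays. A series block could not be fitted for the knockout, whose arrays had a series of their own. Precision is limited by the 2 arrays a group.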

Other observations

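Within the region, the fine profile was shared only in part between replicates. Over 34 bins of 200 kb, which share the probes and their base composition, r was 0.49 between the knockout arrays, 0.38 between the Th2 arrays, 0.21 between the Th1 arrays and 0.51 between the naive arrays. Over single probes of the region it was 0.12, 0.13, 0.10 and 0.28 in the same groups. Across groups, Th2 replicate 1 ran against naive replicate 2 (r = -0.43) and along with knockout replicate 2 (r = 0.54).

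The probe with the highest mean over the 8 arrays, at 118934404, had 3.40 and 2.195 on the knockout arrays, -0.045 and 0.185 on the Th2 arrays, 3.065 and 4.73 on the Th1 arrays, and 2.56 and 1.49 on the naive arrays. The probe at 120768290 had 1.695 and 2.33 in knockout, 0.105 and 0.04 in Th2, 3.895 and 3.515 in Th1 and 2.68 and 2.115 in naive cells. On both probes the 2 Th2 arrays were the lowest of the 8. Other strong probes did not show this: the one at 119234871 had 2.195 and 2.815 on the Th2 arrays, against 1.33 and 2.1 on the naive arrays, and the one at 118903762 had 2.44 and 3.73 on the Th2 arrays, against 3.065 and 2.685 on the naive arrays. These probes were chosen after their values were seen and were not tested.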
